A study of Mus musculus with 12 samples.

Results

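The comparison described here is that of obese and nonobese mice bearing B16-F10 tumors and receiving the isotype control antibody, which is the effect of diet in the absence of PD-1 blockade. Its members were taken by label and comprised 6 of the 12 sequenced tumors, 3 from obese and 3 from nonobese mice, numbered 1 to 3 in each group. All tumors came from male C57BL/6J mice without any engineered allele. B16-F10 is a pigmented mouse melanoma cell line that was implanted subcutaneously, so each sample was a piece of bulk tumor that mixes melanoma cells with host stromal, vascular and immune cells. Obese mice were placed at 4 to 5 weeks of age on a Western diet with 0.2% added cholesterol for 15 weeks, and nonobese mice on a matching control diet. Both groups received the isotype antibody (clone 2A3) at 10 mg/kg, 3 times a week, once tumors were palpable, and tumors were collected on day 16. The other 6 tumors came from mice of the same diets that received anti–PD-1, and they shared the estimate of the spread in the model and gave the diet effect set beside that under isotype at the end. Obesity was induced by the diet, so body weight and the diet itself cannot be told apart.

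Diet-induced obesity changes the supply of fatty acids, cholesterol, insulin and adipose hormones that reaches a tumor, and adipose tissue is also a site of estrogen synthesis in males. Melanoma cells depend on a transcription program driven by MITF and SOX10, on ERK signaling, and on a secretory pathway that folds and delivers melanosome and surface proteins. The comparison asks which of these features differed between obese and nonobese mice without checkpoint blockade.

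The total counts of the 6 tumors ranged from 14022929 to 33871843, and obese tumor 2 was the smallest library. Here and below, values are CPM, the counts of a gene relative to the TMM-scaled size of its library, and values of 3 tumors are listed in the order of tumors 1, 2 and 3. Melanocyte genes were abundant in every tumor, as in Tyrp1, an enzyme of melanin synthesis, with 7343, 6334 and 6758 CPM in nonobese and 7915, 7276 and 9867 CPM in obese mice. A pair of tumors stood apart in their content of host genes. The summed CPM of 22 collagen genes was 2235, 4456 and 5131 in nonobese and 2527, 753 and 2505 in obese mice. Nonobese tumor 1 thus lay at the level of obese tumors 1 and 3, and obese tumor 2 lay below all others. Nonobese tumor 1 also lay with the obese tumors for macrophage, skeletal muscle and adipocyte genes, and obese tumor 2 was also the lowest for macrophage and endothelial genes, so counts in the lists of host genes are given below also for fits that leave out tumors. In bulk tissue, fewer cells of a type and less RNA per cell cannot be told apart.

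With the thresholds of the study, a change of more than 2-fold at an unadjusted P below 0.05, 32 of 13095 genes tested (0.244%) were higher and 147 (1.12%) lower in the obese group. The imbalance lay in the size of the changes. At P below 0.05 alone, 931 genes (7.11%) were higher and 808 (6.17%) were lower, and 899 of the 931 higher genes changed by less than 2-fold, against 661 of the 808 lower genes. The 1739 genes at P below 0.05 compare with 654.75 given by chance. The number with an FDR below 0.05 was 0 by edgeR's quasi-likelihood test, with a lowest FDR of 0.0862. DESeq2, fitted to the same counts, gave 172 genes with an FDR below 0.05, 87 higher and 85 lower, of which 16 were among the genes past both thresholds. Below, a gene is said to have risen or fallen when its unadjusted P in edgeR was below 0.05.

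**Figure D1:**
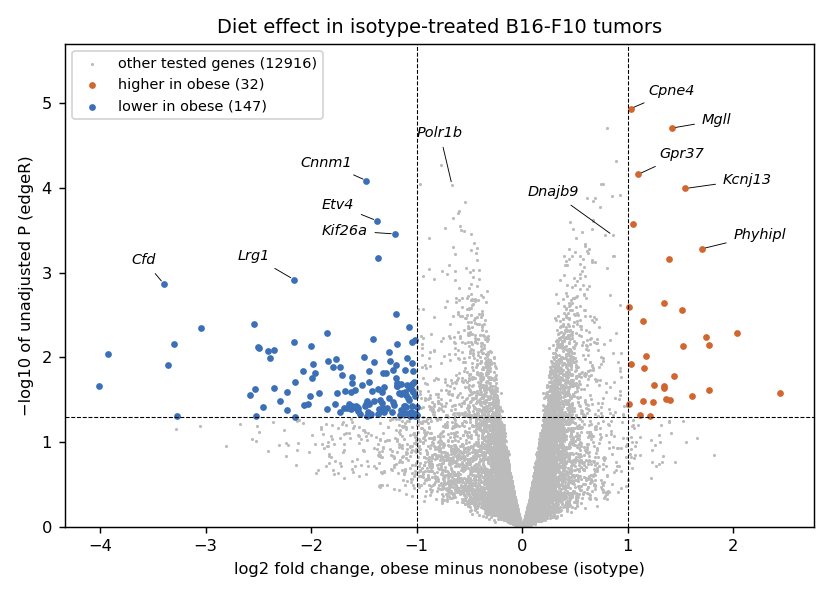
Log2 fold change (obese minus nonobese, isotype) against −log10 of the unadjusted P from edgeR for the 13095 genes tested, with dashed lines at a 2-fold change and at P of 0.05. The 147 lower genes (blue) extend to larger changes than the 32 higher genes (orange), and the smallest P values belong to Cpne4 and Mgll.

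Most genes past both thresholds were weakly expressed. The higher of the 2 group means had a median of 2.31 CPM among the 32 higher genes and 1.92 CPM among the 147 lower genes, against 27.8 CPM among all genes tested. All 3 obese tumors lay on one side of all 3 nonobese tumors for 26 of the 32 higher and 77 of the 147 lower genes. Among all genes tested, the groups did not overlap for 10.4% in the higher and 9.02% in the lower direction. Many of the lower genes followed the pair of tumors described above. Nonobese tumor 1 was the lowest nonobese tumor for 112 of the 147 lower genes (76.2%, against 36.5% of all genes tested), and obese tumor 2 was the lowest obese tumor for 104 (70.7%, against 34.1%). Without nonobese tumor 1 the number of lower genes was 351, without obese tumor 2 it was 53, and without both it was 166. It was 52 without nonobese tumor 2, 90 without nonobese tumor 3 and 246 without obese tumor 1. The number of higher genes was between 28 and 44 when each tumor was left out, but the genes differed. Of the 32 higher genes, 17 to 26 passed both thresholds in each of these fits and 10 in all 6, and of the 147 lower genes 46 to 129 and 20. At P below 0.05 alone, the higher genes numbered 491, 466 and 569 without nonobese tumor 2, nonobese tumor 3 and obese tumor 2, and the lower genes 435 and 392 without nonobese tumor 2 and obese tumor 2.

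The higher genes were led by Cpne4, Mgll, Gpr37 and Kcnj13, all well measured and all past P of 0.05 whichever of the 6 tumors was left out. Mgll encodes monoacylglycerol lipase, which splits monoacylglycerols, among them the endocannabinoid 2-arachidonoylglycerol, into fatty acid and glycerol. It measured 138, 120.2 and 209 CPM in nonobese and 408, 496 and 345 CPM in obese mice. Every obese tumor was above every nonobese tumor, and the log2 fold change was 1.42 (SE 0.22, edgeR FDR 0.0862, DESeq2 FDR 1.51e-06). The gene lies on chromosome 6, 88724412 to 88828360.

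Cpne4, a calcium-dependent membrane-binding protein of the copine family (chromosome 9, 104566701 to 105034544), had the smallest P of all genes. Its level was 13.5, 13.1 and 13.9 CPM in nonobese and 21.3, 31.7 and 29.5 CPM in obese mice. The nonobese tumors were nearly identical, and the log2 fold change was 1.03 (SE 0.15, edgeR FDR 0.0862). Gpr37, an orphan receptor (chromosome 6, 25668523 to 25689980), gave 29.5, 21.6 and 32.3 CPM in nonobese and 48.5, 72.5 and 57.3 CPM in obese mice, with a log2 fold change of 1.1 (SE 0.19, edgeR FDR 0.107). Kcnj13 encodes the inwardly rectifying potassium channel Kir7.1, which is known in pigment cells and in retinal pigment epithelium. With 36.2, 22.9 and 49.5 CPM in nonobese and 86.5, 133 and 96.7 CPM in obese mice, its groups were clear of each other, and the log2 fold change was 1.55 (SE 0.28, edgeR FDR 0.107).

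The rest of the leading higher genes were weaker in level. Phyhipl had 6.07, 6.08 and 4.6 CPM in nonobese and 7.87, 27.6 and 19.8 CPM in obese mice, and its rise of 1.7 on the log2 scale came mainly from obese tumors 2 and 3. Ypel2 had 5.65, 3.91 and 6.08 CPM in nonobese and 11, 12 and 9.36 CPM in obese mice, with a log2 fold change of 1.05 (edgeR FDR 0.125). Sh3bgr, the cell adhesion cadherin Cdh10, the neurotrophin-3 receptor Ntrk3, the microtubule-severing ATPase Fign, the serine protease Prss46 and the vesicular glutamate transporter Slc17a8 completed the 12 higher genes of smallest P without overlap. Their mean levels in obese tumors lay between 0.793 and 6.13 CPM, and their log2 fold changes between 1.01 and 2.03. Of these, Ntrk3 and Slc17a8 are best known from the nervous system, and no list of such genes was tested. Slc17a8 passed P of 0.05 no longer when nonobese tumor 1 and obese tumor 2 were both left out.

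**Figure D2:**
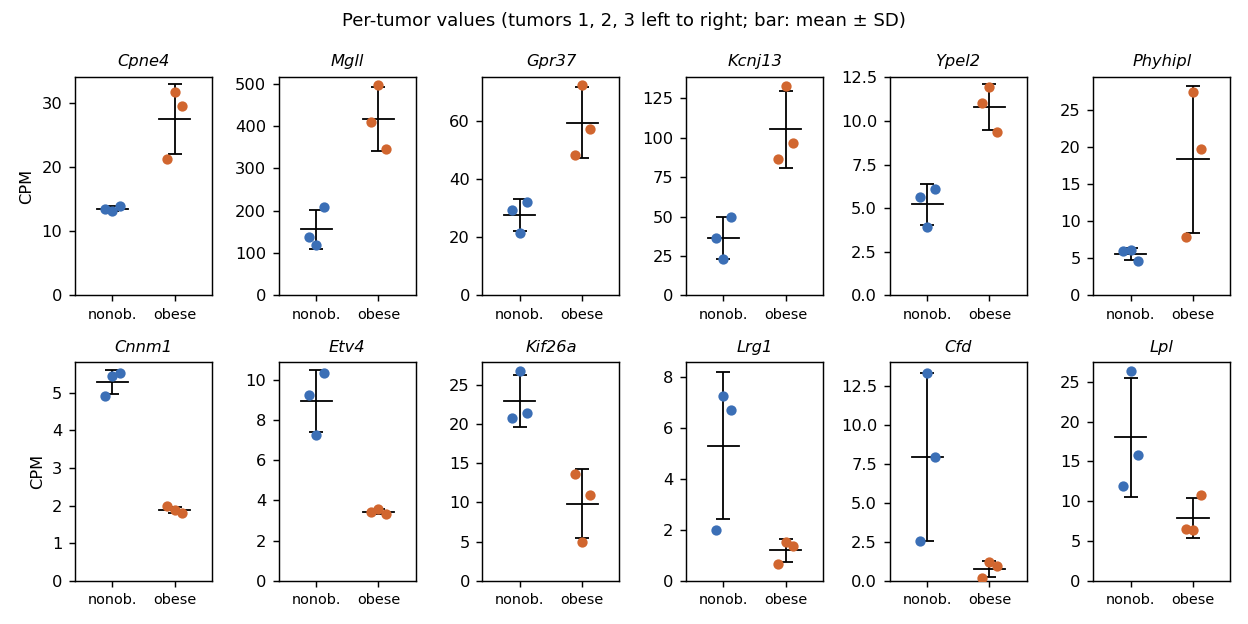
CPM of 6 leading higher genes (top) and 6 leading lower genes (bottom) in the 3 nonobese (blue) and 3 obese (orange) isotype-treated tumors, with tumors 1, 2 and 3 from left to right and bars at the mean ± SD. The groups do not overlap for any of the 12 genes, while nonobese tumor 1 lies close to the obese tumors for Lrg1, Cfd and Lpl.

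Among the lower genes, Cnnm1, a cyclin M family membrane protein linked to magnesium transport (chromosome 19, 43439069 to 43497210), had the smallest P. It measured 4.91, 5.44 and 5.51 CPM in nonobese and 1.98, 1.89 and 1.81 CPM in obese mice, with little spread in either group, and the log2 fold change was -1.48 (SE 0.27, edgeR FDR 0.107). Kif26a, an atypical kinesin, had 20.8, 26.8 and 21.4 CPM in nonobese and 13.6, 4.97 and 11 CPM in obese mice and a log2 fold change of -1.21 (SE 0.25, edgeR FDR 0.125). Obese tumor 2 was the lowest for Kif26a. Both genes were past P of 0.05 with any of the 6 tumors left out.

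Lower genes of small P also included secreted proteins of adipose tissue and inflammation. Lrg1, an acute-phase glycoprotein, had 1.99, 7.26 and 6.7 CPM in nonobese and 0.673, 1.54 and 1.38 CPM in obese mice, a log2 fold change of -2.16 (SE 0.53, edgeR FDR 0.17). Cfd, complement factor D or adipsin, had 2.57, 13.3 and 7.95 CPM in nonobese and 0.21, 1.19 and 0.955 CPM in obese mice, a log2 fold change of -3.4 (SE 0.84, edgeR FDR 0.181). Lpl, lipoprotein lipase, had 11.9, 26.4 and 15.8 CPM in nonobese and 6.48, 6.43 and 10.7 CPM in obese mice and a log2 fold change of -1.19 (SE 0.33, edgeR FDR 0.223). For all 3 genes, nonobese tumor 1 was the nonobese tumor nearest to the obese group. Spint2, Fam189a2, Padi3 and Tubb4a also fell without overlap, at mean levels in nonobese tumors between 0.423 and 1.74 CPM, and the focal adhesion protein Tns1 fell from 48.7 ± 9.2 to 23.8 ± 10.3 CPM (SD, n = 3 each).

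Genes were then grouped by function in 40 lists. Each list is described by how many of its tested members rose or fell, beside the 7.11% and 6.17% of all genes tested, and by its median log2 fold change, beside 0.01 for all genes tested.

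**Figure D3:**
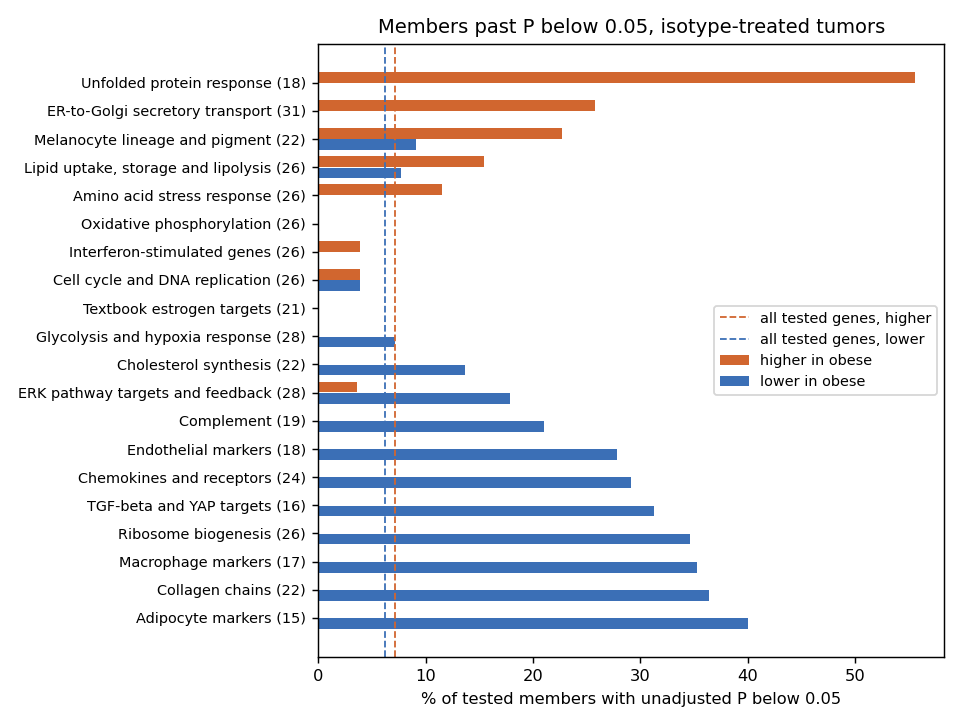
Percentage of the tested members of 20 gene lists (number of members in parentheses) with an unadjusted P below 0.05 in edgeR, higher (orange) or lower (blue) in obese isotype-treated tumors, with dashed lines at 7.11% and 6.17% for all genes tested. The unfolded protein response has the longest bar for higher genes, and adipocyte, collagen, macrophage and ribosome biogenesis genes the longest for lower genes.

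The largest share of rising genes was in the unfolded protein response, the program by which chaperones and folding enzymes are induced when unfolded proteins accumulate in the endoplasmic reticulum (ER). Its sensors IRE1 and ATF6 act through XBP1 and cleaved ATF6, which bind, with NF-Y, the ER stress element in the promoters of ER chaperone genes. Of 18 members tested, 10 rose and 0 fell, 16 had a positive log2 fold change, and the median was 0.27. The 10 genes rose by less than 2-fold each. The element, 5′-CCAAT, 9 bases of any kind and CCACG-3′ on either strand, was present in the promoter of 7 of the 16 members with a RefSeq promoter sequence (GRCm38.p6, 250 bases before to 50 after the start). Among genes tested with such a sequence it was present in 0.202%. The share in the list is a property of the genes chosen, which include ER chaperones, and does not depend on these tumors. The 5 members that hold the element and rose are printed here as the 250 bases upstream of the start, read 5′ to 3′ on the strand of the gene, with the element in capitals (in reverse orientation for Calr, Creld2 and the second copy in Hsp90b1).
Hspa5 (chr2:34771840-34772089, plus strand): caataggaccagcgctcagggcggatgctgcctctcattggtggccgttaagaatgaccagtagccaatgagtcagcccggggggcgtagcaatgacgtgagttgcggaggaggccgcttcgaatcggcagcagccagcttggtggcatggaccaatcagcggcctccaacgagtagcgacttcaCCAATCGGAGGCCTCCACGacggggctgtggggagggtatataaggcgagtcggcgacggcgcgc
Pdia6 (chr12:17266339-17266588, plus strand): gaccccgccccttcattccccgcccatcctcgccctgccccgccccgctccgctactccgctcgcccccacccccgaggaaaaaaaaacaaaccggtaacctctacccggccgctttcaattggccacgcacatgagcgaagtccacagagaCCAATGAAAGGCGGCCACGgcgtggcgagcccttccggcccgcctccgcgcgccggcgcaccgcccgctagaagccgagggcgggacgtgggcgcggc
Creld2 (chr15:88819396-88819645, plus strand): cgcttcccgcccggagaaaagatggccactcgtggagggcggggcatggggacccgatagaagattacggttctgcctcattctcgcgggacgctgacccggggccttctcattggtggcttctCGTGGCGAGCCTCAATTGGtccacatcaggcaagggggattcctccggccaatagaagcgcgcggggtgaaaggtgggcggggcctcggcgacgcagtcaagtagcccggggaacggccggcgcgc
Calr (chr8:84846932-84847181, minus strand): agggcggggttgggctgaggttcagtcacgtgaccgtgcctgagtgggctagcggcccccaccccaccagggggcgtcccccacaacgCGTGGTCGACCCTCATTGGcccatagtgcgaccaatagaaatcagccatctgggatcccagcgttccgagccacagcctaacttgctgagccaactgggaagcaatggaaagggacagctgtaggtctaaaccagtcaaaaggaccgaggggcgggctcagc
Hsp90b1 (chr10:86705445-86705694, minus strand): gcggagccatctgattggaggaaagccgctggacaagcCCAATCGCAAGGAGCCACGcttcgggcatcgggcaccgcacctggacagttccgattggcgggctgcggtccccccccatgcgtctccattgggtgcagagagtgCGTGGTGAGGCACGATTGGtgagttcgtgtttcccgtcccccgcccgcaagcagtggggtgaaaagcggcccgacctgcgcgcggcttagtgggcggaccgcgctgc
The element was also present for Dnajc3 and Canx, whose P values were 0.118 and 0.529. Of the 9 members without the element in this window, 4 rose, against 5 of the 7 with it, and the median log2 fold changes were 0.26 and 0.29. A match to these letters is a description of the window and not evidence of binding.

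Hspa5, the ER chaperone BiP, had 1658, 1339 and 1433 CPM in nonobese and 2022, 1848 and 1816 CPM in obese mice. All obese tumors were above all nonobese tumors, with a log2 fold change of 0.36 (SE 0.12, P 0.011 in edgeR). Dnajb9, a BiP co-chaperone induced through XBP1, changed most in this list, with 20.4, 13.3 and 14.7 CPM in nonobese and 30.5, 31 and 26.6 CPM in obese mice and a log2 fold change of 0.86 (SE 0.18, edgeR FDR 0.125, DESeq2 FDR 0.00361). Sdf2l1, a partner of BiP and its co-chaperones, had 75.7, 63.2 and 65.8 CPM in nonobese and 111, 118 and 94.7 CPM in obese mice and a log2 fold change of 0.66 (SE 0.19). For both genes all obese tumors were above all nonobese tumors, and nonobese tumor 1 was the highest of its group.

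The disulfide isomerases Pdia3 and Pdia6 rose by 0.42 and 0.44 on the log2 scale, and Edem1, which sends misfolded glycoproteins to degradation, by 0.42. Calr, the lectin chaperone calreticulin, rose by 0.29, Creld2 by 0.28, the secreted protein Manf by 0.25 and the chaperone Hsp90b1 by 0.39. Some members did not pass the test. Xbp1 itself had a log2 fold change of 0.061 (P 0.536), the sensor Ern1 of -0.37 (P 0.118) and the chaperone Hyou1 of 0.082 (P 0.66). The number of rising members was between 6 and 10 when each tumor was left out, with 6 without nonobese tumor 2, and 9 without nonobese tumor 1 and obese tumor 2 together. The median stayed between 0.26 and 0.34 when each tumor was left out. Among 15 heat shock genes, mostly of the cytosol, 0 rose in edgeR and in DESeq2, and the cochaperone Bag3 and the small heat shock protein Hspb1 fell by 0.46 and 0.97 on the log2 scale. Hspb1 passed P of 0.05 in 2 of the 6 fits that leave out 1 tumor, and the falling heat shock genes numbered 4 without obese tumor 3 and 1 without nonobese tumor 2, nonobese tumor 3 or obese tumor 2.

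Transport between the ER and the Golgi, through COPII and COPI vesicles and their SNARE proteins, moved in the same direction. Of 31 members tested, 8 rose and 0 fell, 23 were positive, and the median log2 fold change was 0.20. Bet1, a SNARE of ER-to-Golgi vesicles, had 30.1, 26.4 and 27.9 CPM in nonobese and 34.4, 49.5 and 39.9 CPM in obese mice and a log2 fold change of 0.55 (SE 0.14, edgeR FDR 0.19). The SNARE Sec22b rose by 0.45, the coatomer subunit Copb1 by 0.35, the cargo receptor Tmed2 by 0.33, the SNAREs Gosr2 and Ykt6 by 0.29 and 0.24, the small GTPase Arf4 by 0.27 and the tether Uso1 by 0.27. The COPII coat subunit Sec31a did not follow, at -0.24 (P 0.141). The summed CPM of the list was 5910, 5044 and 5338 in nonobese and 6009, 5610 and 6038 in obese mice, so the groups overlapped. The count was 4 without nonobese tumor 2, 15 without nonobese tumor 1 and 13 without nonobese tumor 1 and obese tumor 2 together. Serpinh1, the collagen chaperone of the ER, rose as well. It had 809, 848 and 767 CPM in nonobese and 1225, 1058 and 1072 CPM in obese mice and a log2 fold change of 0.47 (SE 0.12, edgeR FDR 0.185), while the collagens themselves were lower.

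Ribosome biogenesis, in which RNA polymerase I transcribes ribosomal RNA and nucleolar factors process it, moved the other way. Of 26 members tested, 9 fell and 0 rose, 24 were negative, and the median log2 fold change was -0.17. Polr1b, the second largest subunit of RNA polymerase I (chromosome 2, 129100970 to 129128060), had 118, 121 and 143 CPM in nonobese and 85.4, 66.4 and 88.9 CPM in obese mice. All obese tumors were below all nonobese tumors, with a log2 fold change of -0.67 (SE 0.12, edgeR FDR 0.107, DESeq2 FDR 0.000401). Wdr12, a subunit of the PeBoW complex of large subunit processing, had 85.7, 91.2 and 88.3 CPM in nonobese and 62.2, 65.7 and 65.4 CPM in obese mice and a log2 fold change of -0.46 (SE 0.10). The nucleolar phosphoprotein Nolc1 had 256, 261 and 294 CPM in nonobese and 199.6, 191 and 214 CPM in obese mice and a log2 fold change of -0.43 (SE 0.10). Within each group these values differed little.

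Nop2, an rRNA methyltransferase, fell by 0.41 on the log2 scale, Nop56, a core protein of box C/D particles, by 0.37, Rrp12 by 0.63, Polr1a, the largest polymerase I subunit, by 0.38, the helicase Ddx21 by 0.25 and Wdr43 by 0.26. The number of falling members was between 6 and 10 when each tumor was left out, with 6 without nonobese tumor 3, and 9 without nonobese tumor 1 and obese tumor 2 together. The E-box 5′-CACGTG-3′, which MYC and related factors bind and which reads the same on both strands, was present in the promoter of 5 of 22 members with a sequence (22.7%), against 11.7% of genes tested. Rrn3, a member that did not fall, carries it as well, and the number of carriers that fell was not counted. Nop2 is shown as an example of a member that fell and carries it, as the 250 upstream bases with the E-box in capitals.
Nop2 (chr6:125131633-125131882, plus strand): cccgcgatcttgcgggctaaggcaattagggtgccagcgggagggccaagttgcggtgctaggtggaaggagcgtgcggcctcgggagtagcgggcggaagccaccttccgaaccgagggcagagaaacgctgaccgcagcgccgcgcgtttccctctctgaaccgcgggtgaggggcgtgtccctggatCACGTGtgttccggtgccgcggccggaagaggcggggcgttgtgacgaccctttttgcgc
Myc itself had 72.2, 59.2 and 56 CPM in nonobese and 49.2, 58.9 and 50.2 CPM in obese mice and a log2 fold change of -0.25 (P 0.083 in edgeR), and its groups overlapped.

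The targets of ERK signaling, the pathway downstream of RAS and BRAF, changed in both directions. Of 28 tested, 5 fell and 1 rose, and the median log2 fold change was -0.09. The ETS factors Etv4 and Etv5, transcribed in response to ERK, were the clearest. Etv4 (chromosome 11, 101769747 to 101785310) had 9.25, 7.26 and 10.3 CPM in nonobese and 3.41, 3.57 and 3.34 CPM in obese mice and a log2 fold change of -1.38 (SE 0.28, edgeR FDR 0.125). Etv5 had 70.2, 58.5 and 58.2 CPM in nonobese and 32.5, 29.4 and 39.6 CPM in obese mice and a log2 fold change of -0.88 (SE 0.19, edgeR FDR 0.129). Neither pair of groups overlapped, and both genes were past P of 0.05 with any tumor left out. The phosphatase Dusp4 fell by 0.33, the EGF receptor ligand Hbegf by 0.63 and the feedback inhibitor Spry1 by 0.40 on the log2 scale. Phlda1 was the member that rose, by 0.54, and Fos had a log2 fold change of 0.35 (P 0.0648). With nonobese tumor 1 and obese tumor 2 left out, 2 members fell, and without nonobese tumor 3, 3 members rose.

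Of 22 genes of the melanocyte lineage and pigment synthesis, 5 rose and 2 fell, with a median log2 fold change of 0.15. Besides Kcnj13, the rising members were Rab27a, which tethers melanosomes for transport (0.60 on the log2 scale), the channel Trpm1 (0.39), the melanosomal exchanger Slc24a5 (0.26) and tyrosinase, Tyr (0.36, edgeR P 0.0472). Sox10, the lineage transcription factor, had 1021, 1063 and 931 CPM in nonobese and 819, 718 and 675 CPM in obese mice, a log2 fold change of -0.45 (SE 0.14, edgeR FDR 0.25). Mlph, the melanophilin that links Rab27a to myosin, fell by 0.52. Thus Rab27a and Mlph of the same transport complex had log2 fold changes of opposite sign. The falling members numbered 1 without nonobese tumor 3 or obese tumor 2, where Sox10 passed P of 0.05 and Mlph did not. They numbered 3 without nonobese tumor 2 or obese tumor 1. Tyrp1, Dct, Mitf and Pmel did not pass the test, with log2 fold changes of 0.29, 0.17, 0.30 and -0.062 and P values from 0.0545 to 0.672. Tyr and Slc24a5 were near the threshold, and the number of rising members was 3 under RLE scaling, 2 without nonobese tumor 2, 3 without obese tumor 1 or 3 and 4 with each of the other 3 tumors left out. Sox9, a factor of less differentiated melanoma cells, had 10.4, 10.6 and 6.42 CPM in nonobese and 15.5, 17.5 and 18.3 CPM in obese mice and rose by 0.89 on the log2 scale (SE 0.27), while Axl of the same list fell by 0.66. They were the 2 members of the 17 tested in this list of the dedifferentiated state that passed the test, 15 of the 17 were negative, and the median was -0.24. Without obese tumor 1, 5 fell, and without nonobese tumor 2 or 3 or obese tumor 2, 0.

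Lipid genes did not move as a block. Of 26 genes of lipid uptake, storage and lipolysis, 4 rose, namely Mgll, the lysophospholipase Abhd12 (0.30), the lysosomal lipase Lipa (0.24) and Angptl4 (0.74), and Lpl and the sterol exporter Abcg1 fell, the latter by 0.65. Angptl4, a secreted inhibitor of lipoprotein lipase, had 6.52, 7.02 and 5.85 CPM in nonobese and 13.3, 8.46 and 10.6 CPM in obese mice, without overlap, and it did not pass P of 0.05 without obese tumor 1 (P 0.106). The median of the list was -0.05. The rising members numbered 1 without obese tumor 1 and 2 without nonobese tumor 2 or 3, and the falling members 4 without obese tumor 1 and 1 without nonobese tumor 2 or 3 or obese tumor 2. Cholesterol synthesis and uptake gave 3 falling genes of 22, among them Hsd17b7 (-0.31), with a median of -0.05. Sqle, squalene epoxidase, had a log2 fold change of -0.081 (P 0.55). Without nonobese tumor 1, 1 member fell and 4 rose, and without obese tumor 2, 1 fell. In fatty acid synthesis, Dgat2, the enzyme of the last step of triglyceride synthesis, fell from 4.11 ± 0.183 to 2.25 ± 0.305 CPM and Fasn, fatty acid synthase, from 1229 ± 73.7 to 857 ± 276 CPM (SD, n = 3 each), and 2 of 18 members fell in all. This number was 4 without obese tumor 1, 3 without obese tumor 3 and 1 without obese tumor 2. Hsd17b7 and Fasn no longer passed P of 0.05 when nonobese tumor 1 and obese tumor 2 were both left out.

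In glycolysis and the response to hypoxia, the hexokinases Hk1 and Hk2 fell by 0.59 and 0.68 on the log2 scale, and 2 of 28 members fell in all, with a median of -0.22. With the 6 isotype tumors alone, 6 fell. Hk1 had 770.2, 666 and 655 CPM in nonobese and 557, 340.1 and 493 CPM in obese mice, with obese tumor 2 the lowest. When nonobese tumor 1 and obese tumor 2 were both left out, neither hexokinase passed P of 0.05 and the median of the list turned to 0.07. It was -0.02 without nonobese tumor 1, with 2 members rising and 1 falling, and 1 fell without obese tumor 2. Of 26 oxidative phosphorylation genes, 0 rose and 0 fell in edgeR and 1 fell in DESeq2, with a median of 0.05. Without obese tumor 1, 3 rose and 1 fell, 1 rose without obese tumor 3, and without obese tumor 2, 1 fell and the median turned to -0.06, with 19 negative. With the 6 isotype tumors alone, 2 fell. The smallest P among them was that of Ndufv1 (log2 fold change -0.24, P 0.061). Of 26 cell cycle and replication genes, the replication clamp Pcna rose by 0.35, the licensing factor Cdt1 fell by 0.36, and the median was 0.04. In this list, 3 rose and 2 fell without obese tumor 1, 2 rose and 3 fell without obese tumor 3, 2 rose without nonobese tumor 1, and 0 rose without obese tumor 2, when Pcna had a P of 0.0636. The median was between -0.04 and 0.08 when each tumor was left out. In the amino acid stress response driven by ATF4, 3 of 26 rose and 0 fell, 14 were negative, and the median was -0.06. The transaminase Gpt2 had 42, 36.2 and 30.7 CPM in nonobese and 60.2, 54.1 and 48.8 CPM in obese mice and a log2 fold change of 0.58 (SE 0.14), the stress factor Atf3 rose by 0.64 and the mitochondrial folate enzyme Mthfd2 by 0.36. Mthfd2 passed P of 0.05 in 3 of the 6 fits that leave out 1 tumor. In the list, 2 rose and 3 fell without obese tumor 1, 2 rose without nonobese tumor 3, and 5 rose without obese tumor 3. Atf4 had 308, 324 and 207 CPM in nonobese and 447, 422 and 264 CPM in obese mice (P 0.0612), with nonobese and obese tumor 3 the lowest of their groups.

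Collagen genes were lower in obese mice, with large differences between tumors. All 22 collagen chain genes had a negative log2 fold change, 8 fell in edgeR and 3 in DESeq2, and the median was -0.95. Col1a1, the main chain of type I collagen, had 266, 943 and 1071 CPM in nonobese and 354, 47.4 and 374 CPM in obese mice and a log2 fold change of -1.55 (SE 0.68, edgeR FDR 0.36). The groups overlapped, since nonobese tumor 1 was below 2 of the obese tumors, and the P of Col1a1 was not below 0.05 in DESeq2. Col5a1, the matrix protein Fbn1 and the lysosomal leukocyte gene Laptm5 were, with Col1a1 and Tns1, the most abundant genes past both thresholds in the lower direction, and moved from 119 ± 49.4 to 58.4 ± 31.6, from 98.6 ± 58.4 to 36 ± 24.1 and from 62 ± 23.2 to 29.9 ± 13 CPM (SD, n = 3 each). When each tumor was left out, Fbn1 passed P of 0.05 in 2 of the 6 fits (highest P 0.198), Col1a1, Col5a1 and Laptm5 in 3, and Tns1 in 6. The basement membrane chains Col4a1 and Col4a2 were more even among nonobese tumors. Col4a1 had 573, 570.4 and 644 CPM in nonobese and 474, 195 and 459.8 CPM in obese mice and a log2 fold change of -0.66 (SE 0.29, P 0.0379). Without nonobese tumor 1 the number of falling chains was 15, without obese tumor 2 it was 0, without nonobese tumor 2 or 3 it was 1, and without nonobese tumor 1 and obese tumor 2 together it was 6. It was 15 with the 6 isotype tumors alone. The median remained negative in all of these fits, between -1.22 and -0.58 when each tumor was left out.

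Most vessel and stromal markers had a negative log2 fold change, and obese tumor 2 had the lowest sum of each list. Of 18 endothelial markers, 5 fell, and the summed CPM was 753, 803 and 824 in nonobese and 714, 444 and 631 in obese mice. The groups did not overlap in this sum. Vwf, von Willebrand factor, fell by 0.90, the receptors Tie1 and Flt1 by 0.64 and 0.51, Plvap by 0.62 and endoglin, Eng, by 0.39 on the log2 scale. Without obese tumor 2, 0 of the 18 fell, without obese tumor 3, 2, without nonobese tumor 3, 3, without obese tumor 1, 9, and without nonobese tumor 1 and obese tumor 2 together, 2. Among 12 pericyte and smooth muscle markers, 3 fell, Cnn1, Des and Acta2, the smooth muscle actin, which had 72.2, 66 and 69.4 CPM in nonobese and 51.9, 22.2 and 39.2 CPM in obese mice. Each of these 3 genes lost P below 0.05 in some of the fits that leave out 1 tumor, and the count was 1 without nonobese tumor 2, nonobese tumor 3 or obese tumor 2. Among 14 fibroblast markers, 13 were negative and 1 (7.14%) fell, Thy1, by 0.86. The number of falling fibroblast markers was 6 without nonobese tumor 1, 3 without obese tumor 1, 0 without any 1 of the other 4 tumors and 3 without nonobese tumor 1 and obese tumor 2 together, and Thy1 passed P of 0.05 in 2 of the 6 fits. With the 6 isotype tumors alone, 5 pericyte and smooth muscle markers and 3 fibroblast markers fell. TGF-beta and YAP targets gave 5 falling genes of 16, among them Tgfbi (-1.22), Thbs1 (-0.79) and Axl. This number was 0 without obese tumor 2 or nonobese tumor 2, 3 without obese tumor 3 or nonobese tumor 3, and 2 without nonobese tumor 1 and obese tumor 2 together. Whether the content of stromal cells or the expression per cell differed was not tested.

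**Figure D4:**
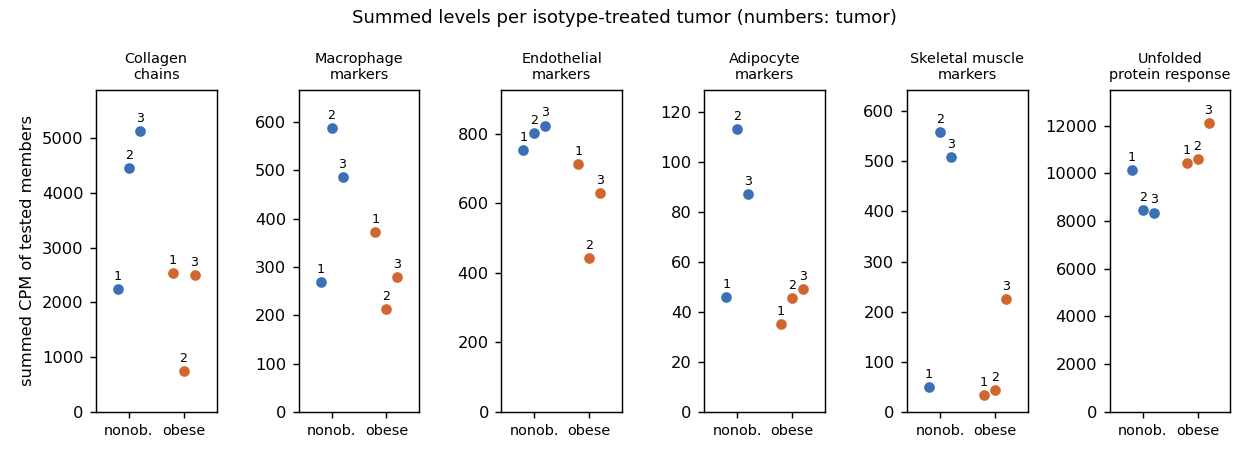
Summed CPM of the tested members of 6 lists in each isotype-treated tumor, nonobese in blue and obese in orange, with the tumor number above each point and the vertical axis starting at 0. Nonobese tumor 1 lies with the obese tumors for collagen, macrophage, adipocyte and skeletal muscle genes, and obese tumor 2 is the lowest for collagen, macrophage and endothelial genes. For the unfolded protein response all obese tumors lie above all nonobese tumors. Nonobese tumor 1 (10158) is again the nearest to them, just below obese tumor 1 (10441).

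Macrophage genes were lower as well. All 17 markers had a negative log2 fold change, 6 fell, and the median was -0.61. The summed CPM was 268, 588 and 486 in nonobese and 373, 213 and 279 in obese mice. The defining markers were detected in every tumor, as in Csf1r, the receptor for macrophage colony-stimulating factor, with 22.4, 67.1 and 55.5 CPM in nonobese and 27.2, 10.6 and 26.4 CPM in obese mice (log2 fold change -1.17, SE 0.47). Mrc1, the mannose receptor CD206, had 22.6, 34.5 and 29.8 CPM in nonobese and 17, 5.39 and 18.1 CPM in obese mice, without overlap, and a log2 fold change of -1.09 (SE 0.37, edgeR FDR 0.279). Cd163, the hemoglobin scavenger receptor, fell by 1.93 on the log2 scale, with nonobese tumor 1 at the level of the obese tumors. The number of falling markers was 12 without nonobese tumor 1, 1 without obese tumor 2, 2 without nonobese tumor 2 or 3, 3 without obese tumor 3, and 6 without nonobese tumor 1 and obese tumor 2 together.

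Of 24 chemokines and receptors tested, 7 fell and 0 rose, with a median of -0.77. These were the monocyte attractants Ccl2, Ccl7 and Ccl12, the myeloid chemokines Ccl6, Ccl9 and Pf4, and the receptor Ccr1. Ccl2 had 5.11, 5.17 and 4.15 CPM in nonobese and 3.2, 1.54 and 2.86 CPM in obese mice, with a log2 fold change of -0.91. Ccl12 had 2.79, 2.73 and 2.04 CPM in nonobese and 1.6, 1.26 and 1.05 CPM in obese mice, with a log2 fold change of -0.95. The groups did not overlap for either chemokine. Ccl5, by contrast, had 3.95, 4 and 4.94 CPM in nonobese and 8.24, 8.88 and 4.34 CPM in obese mice and a positive log2 fold change of 0.74 (P 0.0674). Of 19 complement genes, 4 fell, Cfd, the anaphylatoxin receptors C5ar1 (-1.04) and C3ar1 (-0.80) and the integrin Itgb2 (-0.69). Of the chemokine list, 3 fell without obese tumor 2, 4 without nonobese tumor 2 or 3 and 11 without nonobese tumor 1, and of the complement list 2 without nonobese tumor 2 or obese tumor 2, 7 without obese tumor 1 and 11 without nonobese tumor 1. Without nonobese tumor 1 and obese tumor 2 together, 5 of each list fell.

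Most lymphocyte genes were near the limit of detection, while Lck had 51 to 173 and Cd4 had 11 to 42 counts in the 6 tumors. The T cell receptor subunit Cd3d had 4, 8 and 5 counts in nonobese and 0, 0 and 2 counts in obese mice, and Cd8a had 8, 28 and 6 counts in nonobese and 4, 5 and 8 counts in obese mice. Cd3d passed the test (P 0.0385 in edgeR) on these few counts, though in 2 of the 6 fits that leave out 1 tumor, and Cd8a did not (P 0.371). The summed CPM of 11 T and NK cell markers was 6.52, 10.3 and 8.69 in nonobese and 7.19, 5.53 and 7.73 in obese mice, and 1 of the 11 fell, against 3 with the 6 isotype tumors alone. Of 26 interferon-stimulated genes, 1 rose and 0 fell, with a median of 0.05. The gene that rose was Ifit2 (0.32), whose relative Ifit1 had 0.44 (P 0.0573). Ifit2 passed P of 0.05 in 3 of the 6 fits that leave out 1 tumor. In the list, 0 rose without nonobese tumor 2, nonobese tumor 3 or obese tumor 3, 2 rose without either of the other obese tumors, 2 fell without nonobese tumor 1 and 1 fell without obese tumor 1. The median was between -0.05 and 0.13 in these fits, and with the 6 isotype tumors alone 3 rose and 4 fell. In antigen presentation by MHC class I, 2 of 15 genes fell, the immunoproteasome subunit Psmb8 (-1.03) and the nonclassical molecule H2-T23 (-0.57), which belongs to a family of similar genes whose reads may not be separable, and Calr of the ER rose. Psmb8 and H2-T23 each passed P of 0.05 in 2 of the 6 fits that leave out 1 tumor, and 0 of the list fell without nonobese tumor 2, obese tumor 2 or obese tumor 3, or without nonobese tumor 1 and obese tumor 2 together, and 6 fell with the 6 isotype tumors alone. The checkpoint ligand Cd274 had 6.68, 9.52 and 7.21 CPM in nonobese and 9.63, 8.6 and 8.36 CPM in obese mice and a log2 fold change of 0.18 (P 0.616).

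Adipocyte genes were lower in the tumors of obese mice. Of 15 markers tested, 6 fell, each by more than 2-fold, and the median was -1.19. With at least 10 counts required in every tumor, 5 markers remained, 1 fell and the median was -0.26. Adipoq, adiponectin, had 0.867, 2.82 and 1.53 CPM in nonobese and 0.379, 0.42 and 0.764 CPM in obese mice and a log2 fold change of -1.73 (SE 0.60, edgeR FDR 0.288). Retn, resistin, had 24, 19 and 6 counts in nonobese and 0, 2 and 1 counts in obese mice, and Lep, leptin, had 9, 20 and 15 counts in nonobese and 4, 6 and 13 counts in obese mice (P 0.53). The lipid droplet genes Plin4 and Cidec fell by 1.66 and 1.55 on the log2 scale, with nonobese tumor 1 at 0.739 and 0.707 CPM, at the level of the obese tumors. The summed CPM of the 15 markers was 46, 113 and 87.1 in nonobese and 35.3, 45.5 and 49.1 in obese mice. With nonobese tumor 2 left out, or obese tumor 1, 3 markers fell, and with nonobese tumor 1 and obese tumor 2 left out, 9 fell.

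Other tissues around a subcutaneous tumor were also represented unequally. The summed CPM of 22 skeletal muscle genes was 50, 558 and 509 in nonobese and 34, 44.1 and 225 in obese mice. All 22 had a negative log2 fold change with a median of -1.71, and 1 fell, Des, which pericytes share. The number falling was 6 when the 6 isotype tumors were fitted alone and 6 with the filter of at least 1 count over all tumors. Without nonobese tumor 1 the number was 11, without obese tumor 3 it was 16, with any 1 of the other 4 tumors left out it was 0, and without nonobese tumor 1 and obese tumor 2 together it was 2. Among keratinocyte genes, 3 of 14 could be tested, and Krt5 fell in edgeR but not in DESeq2, with 27, 176 and 11 counts in nonobese and 9, 0 and 0 counts in obese mice. In this list 0 fell without nonobese tumor 2, and 2 without nonobese tumor 1, nonobese tumor 3 or obese tumor 1. Nonobese tumors 2 and 3 had the highest sums for skeletal muscle as for collagen and adipocyte genes. The keratinocyte sum was 8.58, 19.96 and 8.35 CPM in nonobese and 9.17, 4.2 and 6.11 CPM in obese mice. The part of such tissue in the differences of collagen and adipocyte genes was not tested.

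Estrogens were the hormones the study examined in obese males, and sex steroid genes are therefore described here. Esr1, estrogen receptor alpha, had 2.41, 3.26 and 3.35 CPM in nonobese and 3.07, 2.1 and 3.49 CPM in obese mice and a log2 fold change of -0.048 (SE 0.28, P 0.864 in edgeR). The nonobese values lay within the range of the obese values. Further receptors and aromatase were below the filter on low counts. The 6 tumors held 0 to 1 counts of Esr2, estrogen receptor beta, 0 of the progesterone receptor Pgr, 0 to 1 of aromatase, Cyp19a1, and 0 to 17 of the membrane estrogen receptor Gper1. A count of 0 in a library allows up to 3 counts. The 17-beta-hydroxysteroid dehydrogenase genes Hsd17b7 and Hsd17b11 changed in opposite directions, by -0.31 and 0.32. Neither passed P of 0.05 when nonobese tumor 1 and obese tumor 2 were both left out. Hsd17b1, which converts estrone to estradiol, had 0.835, 1.32 and 0.966 CPM in nonobese and 3.66, 2.1 and 0.764 CPM in obese mice (P 0.154), and its higher mean came from obese tumors 1 and 2.

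Of 21 textbook estrogen target genes tested, 0 rose and 0 fell at P below 0.05 in edgeR. The median log2 fold change was -0.21, and 15 were negative. DESeq2 gave 2 falling genes at an unadjusted P below 0.05, as did edgeR with RLE scaling or with at least 10 counts required in every tumor. In edgeR, 3 fell without obese tumor 1, 2 without obese tumor 3 and 1 without nonobese tumor 1. The members of smallest P were Tiam1 (-0.22, P 0.0575), the cyclin Ccnd1 (-0.27, P 0.0601) and Bcl2 (0.22, P 0.108). Cxcl12 had 7.77, 12 and 13.2 CPM in nonobese and 8.41, 1.68 and 7.73 CPM in obese mice, with obese tumor 2 alone well below the others. The palindromic estrogen response element GGTCANNNTGACC was in none of the 16 promoters of these genes with a sequence, and in 0.00962% of genes tested, which says only that these letters are not in the window searched. In insulin, IGF and leptin signaling, 2 of 23 fell, the receptor Igf1r (-0.52) and the phosphatase Inpp5d (-1.01), and Pik3ca rose by 0.36. Igf1r and Inpp5d each passed P of 0.05 in 3 of the 6 fits that leave out 1 tumor. The number of falling members was 0 without obese tumor 2, 1 without nonobese tumor 2 or 3, 4 without any 1 of the other 3 tumors and 5 in DESeq2.

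To see whether the same genes followed diet in a second set of mice, the values were set beside those of obese and nonobese mice that received anti–PD-1, a comparison that shares no tumor with that under isotype. There, 5.71% of all genes tested were higher and 4.56% lower in obese mice at P below 0.05. Of the 32 genes higher under isotype, 22 had the same sign, 5 were higher at P below 0.05 and 1 was lower. Across all genes tested, which are not independent replicates, the diet effects on the log2 scale in both sets of mice had a Pearson correlation of -0.364. Mgll had a log2 fold change of 1.31 (SE 0.22) in the anti–PD-1 tumors beside 1.42 under isotype, Kcnj13 2.04 beside 1.55, Phyhipl 1.25 beside 1.7 and Gpr37 0.75 beside 1.1. Cpne4, first under isotype, had 0.31 (P 0.0645).

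Of the 147 lower genes, 29 had the same sign under anti–PD-1, 4 were lower at P below 0.05, among them Kif26a (-0.71), and 66 (44.9%) were higher at P below 0.05. Col1a1 had a log2 fold change of 1.54 and Adipoq of 3.65 in that comparison. The difference between both diet effects, tested in the same model, passed P of 0.05 in the positive direction for 7.01% and in the negative for 5.87% of all genes tested, and for 0 genes at an FDR below 0.05, with 1687 genes at an unadjusted P below 0.05 in edgeR. By this test the diet effect was more positive under anti–PD-1 for 15 of 17 macrophage markers, 14 of 15 adipocyte markers and 10 of 22 collagen chains. It was also more positive for 9 of 9 MHC class II and 14 of 15 MHC class I genes. The same held for 10 of 11 T and NK cell markers and 21 of 26 interferon-stimulated genes, the latter with a median of 0.05 under isotype. The diet effect was more negative for 8 of 18 unfolded protein response genes and 9 of 31 ER-to-Golgi genes, whose medians under anti–PD-1 were -0.12 and -0.07. For ribosome biogenesis it was more positive for 7 of 26, with a median of -0.01. In melanocyte genes, 1 of 22 differed. This difference contains the isotype effect itself, so genes that were low under isotype lean towards positive values in it.

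**Figure D5:**
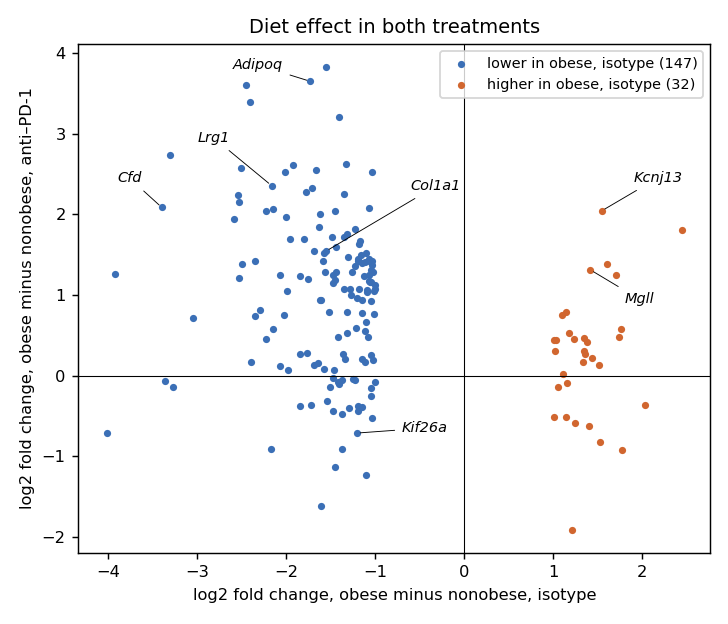
Log2 fold change (obese minus nonobese) under isotype (horizontal) and under anti–PD-1 (vertical) for the 32 higher and 147 lower genes past a fold change of 2 and P of 0.05 under isotype, which chose the horizontal values. Of the 147 lower genes (blue), 66 are higher at P below 0.05 under anti–PD-1, whereas Mgll and Kcnj13 among the 32 higher genes (orange) are high in both.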

How the data were processed

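Total RNA was extracted from a piece of each frozen tumor, and its messenger RNA was sequenced as single reads of 100 bp from a stranded library. The deposited values are raw counts of reads per gene, which the authors made with STAR 2.7.0f and HTSeq 0.9.1 on mm10. The strand setting and the annotation of the counting are not given in the sources used here, so overlapping and antisense genes are uncertain. Of 23420 genes, 17519 had a count and 13095 passed edgeR's filterByExpr. Counts were scaled by TMM and tested with edgeR 4.0.16 (R 4.3.3, quasi-likelihood F-test, means of 4 groups of 3 tumors, 8 residual degrees of freedom), with Benjamini-Hochberg FDR over all genes tested. DESeq2 1.42.0, RLE scaling, other filters, the 6 isotype tumors alone, a replicate block and leaving out tumors were alternatives. The calculation was first tested on simulated data.

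The rule for named genes took the 12 of smallest P without overlap and the 5 of highest mean CPM in each direction, past both thresholds, and, for each of 40 lists, the members past both thresholds and the 3 of smallest P, with a set of hormone, adipokine, T cell and pigment genes. Other genes named, mostly further list members, were chosen after their values were seen. Some genes that the rule takes are not reported here. The comparison and the lists were chosen with earlier results of these data known. Each tumor came from a separate mouse, so P values measure the spread between tumors. An exact permutation test of 3 against 3 tumors cannot go below a two-sided P of 0.1 and was not used. Gene positions and promoter sequences are those of RefSeq (GRCm38.p6, equivalent to mm10).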

Additional observations from a re-analysis of the deposited data

Results flagged for a closer look

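The difference between the diet effects under anti–PD-1 and under isotype had an interaction FDR below 0.1 in edgeR for 11 of all genes tested, 6 of them among the genes taken by the naming rule, and for 0 below 0.05, against 1687 at an unadjusted P below 0.05. Each of these 6 was lower in obese mice under isotype and higher in obese mice under anti–PD-1, and the values below are on the log2 scale. The naming rule favors genes of small P under isotype, and the difference contains the isotype effect. Under isotype, Ctss and H2-T23 each passed P of 0.05 in 2 of the 6 fits that leave out 1 tumor, and Adipoq in 4. Adipoq, adiponectin, differed by 5.38 (SE 0.87, FDR 0.0709), from -1.73 under isotype to 3.65 under anti–PD-1. Lrg1, an acute-phase glycoprotein, differed by 4.52 (SE 0.74, FDR 0.0709), from -2.16 to 2.36. Lpl, lipoprotein lipase, differed by 2.63 (SE 0.47, FDR 0.0884), from -1.19 to 1.44. Ctss, the cathepsin of MHC class II presentation, differed by 2.55 (SE 0.44, FDR 0.0855), from -0.84 to 1.72. Pf4, platelet factor 4, differed by 2.51 (SE 0.45, FDR 0.0884), from -1.07 to 1.44. H2-T23, a nonclassical MHC class I gene, differed by 2.15 (SE 0.37, FDR 0.0855), from -0.57 to 1.58.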

How the results depend on the processing

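Genes past both thresholds numbered 14 higher and 58 lower when at least 10 counts were required in every tumor, and 59 higher and 267 lower when at least 1 count over all tumors was enough. The stricter filter tests fewer genes, and the looser one adds weakly expressed genes. With each isotype tumor left out in turn, the higher genes ranged from 28 to 44, the lower genes from 52 to 351, the genes at P below 0.05 from 466 to 1062 higher and from 392 to 1125 lower, and the genes with an FDR below 0.05 from 0 to 1. The number with an FDR below 0.05 was 172 in DESeq2 and 5 with the filter of at least 1 count, and the cause was not tested. With nonobese tumor 1 and obese tumor 2 both left out, a choice made after seeing the data, 512 genes were lower at P below 0.05. With the filter of at least 10 counts, 58 genes were lower. Of the 147 lower genes of the main fit, 38 passed this filter and were higher under anti–PD-1 at P below 0.05. In the main fit, 66 of the 147 were higher there. Replicate numbers did not pair the tumors, since the correlations of same-numbered deviations were -0.127, -0.181 and 0.201, and with the number as a block 32 genes were higher, 174 were lower and 0 had an FDR below 0.05, with 825 higher and 821 lower at P below 0.05. Of 22 skeletal muscle genes, 19 fell with this block, against 1 without it. Of the counts over all genes under all alternatives, 77 kept to within 1.5 times of the value reported and 19 did not. Of the single genes and list medians under all alternatives, 2286 values were counted as unchanged. The others were 238 that lost and 83 that gained P below 0.05 and 24 medians that moved beyond the spread. Of the genes at P below 0.05 in the main fit, 0 changed direction. A change of direction in any other gene was counted as unchanged, as in Esr1, between -0.20 and 0.13 when each tumor was left out. The same held for a median within the spread. Among named genes at P below 0.05, Ppard and Acta2 kept it in 1 of the 6 fits that leave out 1 tumor, Thbs1, Ucp2, Il6ra, Ppara, Icosl, Loxl1, Cidec, Plvap, Plin4, Des, Hsd17b11 and Tyr in 2, and Tie1, Csf1r, Axl and Hsd17b7 in 3. Depth limited lymphocyte, keratinocyte, adipocyte and sex steroid receptor genes, many of which had under 10 counts in a tumor.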

Other observations

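Further groups of genes were measured in the same 6 tumors. Of 30 matrix proteins and remodeling enzymes, 4 fell and 1 rose (Serpinh1), with a median log2 fold change of -0.41. Besides Fbn1, the falling genes were Fbln1 (-0.44), the procollagen processing enhancer Pcolce (-0.50) and Loxl1 (-1.16). The number falling was 14 without nonobese tumor 1, 8 without obese tumor 1, 2 without nonobese tumor 2 and 1 without nonobese tumor 3 or obese tumor 2. Of 9 MHC class II genes, all had a negative log2 fold change and 2 fell, the lysosomal reductase Ifi30 (-0.42, SE 0.13) and the cathepsin Ctss (-0.84, SE 0.31), with a median of -0.50. Ifi30 had 106, 122 and 118 CPM in nonobese and 82.4, 93 and 82.6 CPM in obese mice. It passed P of 0.05 in all 6 fits that leave out 1 tumor and Ctss in 2, and the number falling was 1 without nonobese tumor 2, nonobese tumor 3, obese tumor 1 or obese tumor 2, and 4 with the 6 isotype tumors alone. Of 18 acute-phase and STAT3 genes, Lrg1 and the IL-6 receptor Il6ra (-1.15) fell, with a median of -0.20. Of 21 PPAR and fatty acid oxidation genes, 3 fell, Ucp2 (-0.64), Ppara (-0.84) and Ppard (-0.22), with a median of 0.03. Of 17 immune checkpoint genes, 2 fell, among them Icosl (-0.50), with a median of -0.12. When each tumor was left out, the falling members ranged from 1 to 5 in the acute-phase list, with 5 without obese tumor 1. They ranged from 0 to 2 in the PPAR list, with 0 without obese tumor 2 or 3, while 3 members of that list rose without obese tumor 1 and 1 without nonobese tumor 1 or obese tumor 3. With the 6 isotype tumors alone, 1 of the PPAR list fell. The range was from 0 to 5 among checkpoints, with 5 without nonobese tumor 1.

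For other blood cells, edgeR gave 0 genes past P of 0.05 among 3 neutrophil, 7 dendritic cell, 2 B cell and 3 erythroid markers that passed the filter, and DESeq2 gave 0 as well. Of the erythroid markers, 2 fell with the 6 isotype tumors alone and 1 without nonobese tumor 3. The summed CPM of the erythroid markers was 163, 48.6 and 47.8 in nonobese and 52.4, 51 and 28.2 in obese mice, with nonobese tumor 1 above all others.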
